A study of Mus musculus with 2 samples.

Results

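GATA4 occupancy was described at 39 genes of glucose, glycogen and insulin biology, chosen by name out of 22380 protein-coding genes of the mouse annotation. A GATA4 occupied site (OS) was counted for a gene when its midpoint lay in the gene body or within 10 kb of it. By this rule 15 of the 39 genes held 21 of the 4409 OS of the common list, the peaks found by both peak callers used, SPP and MACS2. The data came from chromatin immunoprecipitation followed by sequencing (ChIP-seq) of whole liver of C57BL/6 x Sv129 mice aged 2 to 3 months by the labels, while the methods give a slightly older range. There was 1 GATA4 ChIP sample, made with the C-20 antibody (Santa Cruz), and 1 sample of liver input DNA that had not been immunoprecipitated. The animals carried no stated transgene or treatment. The ChIP combined 2 biological replicates of 2 mice each, the lists pool them, and the input entered only through the peak calls. The files hold peaks and no expression values, so the liver label could not be checked against marker genes.

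With 1 pooled sample there was no replicate error, and no test between conditions could be made. Counts are therefore set beside the same count over the other 22341 protein-coding genes, and Wilson 95% intervals cover counting error only. Each peak carries a deposited score, which was 1000 in all 3 lists and says nothing of strength. The number of a peak in its list was the only order available, and the files do not say what the numbering follows. In a whole tissue, a site held in a few cells and a site held weakly in many cannot be told apart, and the depth behind a single peak is unknown here.

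The liver takes up glucose after a meal, stores it as glycogen and releases it during fasting, by breaking glycogen down and by making glucose from lactate and amino acids. Insulin favours storage and glycolysis, while glucagon and fasting favour release, and much of this control acts on the transcription of the enzymes and their regulators. GATA4 is a zinc finger transcription factor that recognises the sequence WGATAR, in which W is A or T and R is A or G.

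The OS shown here are the one with the lowest list number in each role group and all within 1 kb of the transcription start site (TSS) of their gene. The Trib1 OS, the only one of its group, is not shown because it lies in an annotated UTR of a shorter coding transcript. Each is given 5′ to 3′ on the strand of its gene, from the mm9 reference (NCBI Build 37), and the capitals mark every WGATAR or its reverse complement. The plus-strand genes are Ldha at chr7:54100646-54100899, G6pc at chr11:101225920-101226136, Slc2a2 at chr3:28620795-28620991, Gbe1 at chr16:70328858-70329016, Gckr at chr5:31599884-31599953 and Ppp1r3b at chr8:36439573-36439692. The minus-strand genes are Creb3l3 at chr10:80555403-80555551, Insr at chr8:3215527-3215780 and Ppp1r3c at chr19:36811171-36811250. Of the Creb3l3 peak, 92 bases annotated as UTR were left out, and the stretch shown is the whole of the intron under it. Of the Gckr peak the 70 bases before the annotated start are shown.
Ldha peak 229: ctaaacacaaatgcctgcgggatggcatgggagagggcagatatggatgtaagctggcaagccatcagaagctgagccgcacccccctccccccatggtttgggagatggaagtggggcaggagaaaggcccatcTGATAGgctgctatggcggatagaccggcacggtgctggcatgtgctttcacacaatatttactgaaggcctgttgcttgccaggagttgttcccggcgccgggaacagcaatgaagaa
Creb3l3 peak 443: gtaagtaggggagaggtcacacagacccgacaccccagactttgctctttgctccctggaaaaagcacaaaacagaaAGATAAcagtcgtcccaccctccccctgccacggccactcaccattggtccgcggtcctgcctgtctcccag
G6pc peak 472: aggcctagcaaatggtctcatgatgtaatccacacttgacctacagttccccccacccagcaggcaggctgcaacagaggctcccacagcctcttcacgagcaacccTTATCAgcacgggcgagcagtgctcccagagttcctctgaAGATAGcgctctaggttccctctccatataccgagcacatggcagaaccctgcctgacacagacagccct
Slc2a2 peak 533: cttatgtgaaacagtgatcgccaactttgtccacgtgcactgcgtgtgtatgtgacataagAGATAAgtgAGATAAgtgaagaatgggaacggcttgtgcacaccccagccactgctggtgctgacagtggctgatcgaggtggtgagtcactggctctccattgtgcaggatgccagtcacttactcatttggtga
Insr peak 556: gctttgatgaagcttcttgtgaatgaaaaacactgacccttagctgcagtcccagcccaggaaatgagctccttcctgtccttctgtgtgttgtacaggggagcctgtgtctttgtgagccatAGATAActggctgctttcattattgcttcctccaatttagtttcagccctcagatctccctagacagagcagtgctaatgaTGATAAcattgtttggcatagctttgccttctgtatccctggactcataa
Gbe1 peak 1204: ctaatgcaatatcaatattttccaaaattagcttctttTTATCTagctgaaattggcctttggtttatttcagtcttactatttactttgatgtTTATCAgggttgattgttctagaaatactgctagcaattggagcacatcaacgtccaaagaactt
Gckr peak 2076: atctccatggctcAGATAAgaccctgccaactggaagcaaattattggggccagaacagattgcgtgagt
Ppp1r3b peak 2371: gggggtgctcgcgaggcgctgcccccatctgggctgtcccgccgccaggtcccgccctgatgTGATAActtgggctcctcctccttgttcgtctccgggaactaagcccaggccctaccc
Ppp1r3c peak 3206: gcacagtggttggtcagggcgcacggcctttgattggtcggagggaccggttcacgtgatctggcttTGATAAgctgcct

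These stretches held 1 or 2 WGATAR each. In the Slc2a2 OS 2 copies of AGATAA stood in the same direction, separated by the bases gtg. In the G6pc OS the 2 copies had opposite directions.

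The common list marked 15 of 39 genes, which is 38.5% (Wilson interval 24.9 to 54.1%). The share over the other protein-coding genes was 13.6%. The 39 genes were chosen with earlier results of these data known, so the shares and intervals describe counts and are not a test. The share with 2 or more OS was 10.3% for the 39 genes, 4 of them, beside 2.99% of the others. Of the 15 genes, 11 held 1 OS, Fbp1 and Creb3l3 held 2 each, and Ldha and Slc2a2 held 3 each. The SPP list alone marked the same 15 genes, beside 14.5% of the others. The MACS2 list marked 20 genes, or 51.3%, beside 17.3% of the others.

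Longer genes offer more room for a peak, so the shares were also taken by gene length. Under 10 kb, 3 of 10 genes held an OS (Khk, Ppp1r3c and Trib1), beside 7.32% of the other genes of that length. The Khk OS was nearer to the TSS of Emilin1, and Khk was not counted within 5 kb. Between 10 and 30 kb there were 8 of 17, beside 12.8%. Between 30 and 100 kb there were 2 of 9 (Pik3r1 and Slc2a2), beside 18.9%. Over 100 kb there were 2 of 3 (Gbe1 and Insr), beside 27.9%. The members' interval stood above the background for genes under 10 kb and for those of 10 to 30 kb. It contained the background for both longer bands. Given how the genes were chosen, this is a description and not a test.

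**Figure D1:**
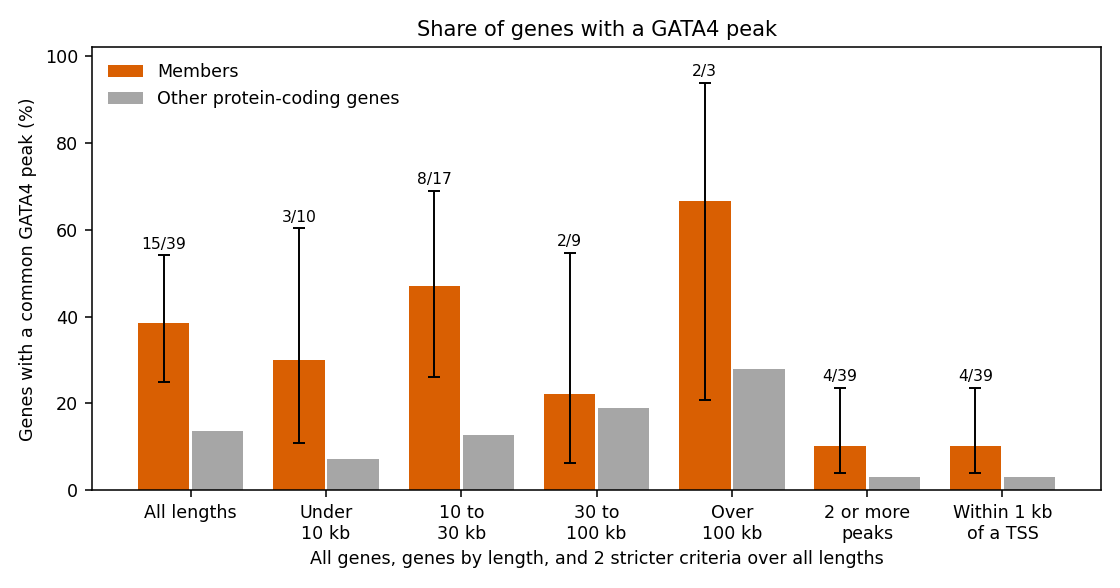
Percentage of the 39 genes (orange, with Wilson 95% intervals and counts above the bars) and of the other protein-coding genes (grey) with a common GATA4 peak, for all genes, by gene length, and under 2 stricter criteria. The share was 38.5% beside 13.6% over all lengths, and 22.2% beside 18.9% for genes of 30 to 100 kb.

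In gluconeogenesis and glucose release, 2 of 5 genes held an OS. G6pc, the catalytic subunit of glucose-6-phosphatase that releases free glucose, had OS number 472, 217 bp wide and 2.85 kb upstream of its TSS, with 2 WGATAR. A second G6pc site, number 4342 of the SPP list and absent from the other lists, had its midpoint 135 bp downstream of the TSS, in exon 1. A further site was found by MACS2 alone, 5.14 kb upstream. The SPP site thus covered the start of G6pc and the other sites lay upstream of it, and 1 of 3 was shared by both callers.

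Fbp1 encodes fructose-1,6-bisphosphatase, which works against phosphofructokinase. Its OS number 1697 lay 1.25 kb upstream of the TSS at chr13:62990815-62990975 and held 1 WGATAR. Its OS number 2897 lay in intron 1 at chr13:62981543-62981862, 7.94 kb downstream of the TSS of the longest transcript, and held 2. Both Fbp1 OS also fell in the window of the predicted gene Gm17367, whose TSS was the nearest one to number 2897.

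No peak of any list was counted for Pck1, Pcx or Slc37a4. Pck1 encodes the cytosolic phosphoenolpyruvate carboxykinase, Pcx pyruvate carboxylase, and Slc37a4 the transporter of glucose 6-phosphate into the endoplasmic reticulum. The nearest OS to the body of Pck1 was 566 kb away. It was 340 kb away for Pcx and 84.8 kb away for Slc37a4.

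In glycolysis and its regulators 5 of 12 genes held 7 OS. Gckr, a regulatory protein that restrains the phosphorylation of glucose in hepatocytes, had OS number 2076 with its midpoint 5 bp from the TSS. This was the closest of all 21 OS to a start of its gene. Its 1 WGATAR stood 49 bp upstream of the midpoint.

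Ldha, lactate dehydrogenase A, which interconverts pyruvate and lactate, had 3 OS. Number 229, the lowest number of the 21, lay in intron 1 of the longest transcript and 437 bp upstream of the TSS of a shorter coding transcript. Number 4009, the highest number of the 21, lay 1.75 kb upstream of the gene at chr7:54094939-54095258. Number 477 lay 8.05 kb upstream at chr7:54088682-54088914, with 1 WGATAR, but only 964 bp from the TSS of the predicted gene Gm5331. A single gene thus held both ends of the range of numbers.

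Khk, ketohexokinase, which phosphorylates fructose, had OS number 1433 at chr5:31218544-31218738, 5.29 kb upstream, with 1 WGATAR. The TSS of Emilin1 was nearer to it, at 2503 bp. A peak of the MACS2 list alone covered the start of Khk, with its midpoint 64 bp upstream of a coding TSS. Pgk1, phosphoglycerate kinase, had OS number 3755 at chrX:103379770-103379873, 2.62 kb upstream of its TSS. Pfkl, the liver subunit of phosphofructokinase, had OS number 4008 at chr10:77481636-77481724, 9.13 kb upstream of its coding TSS. Neither the Pgk1 nor the Pfkl OS held a WGATAR.

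The other 7 genes of the group had no OS of the common list. MACS2 alone placed a peak 2.68 kb upstream of Pfkfb3, an enzyme that makes the phosphofructokinase activator fructose 2,6-bisphosphate. It placed another 2.83 kb upstream of Gpi1, glucose-6-phosphate isomerase, and this one held 4 WGATAR. Pfkfb1, Pklr (the pyruvate kinase of liver), Gapdh, Eno1 and Tpi1 had no peak of any list. Gapdh lay just outside the rule, with an OS 13507 bp from its body, while the nearest to Pfkfb1 was 5106 kb away.

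Of both glucose transporters, Slc2a2 held 3 OS and Slc2a1 none. Slc2a2 encodes GLUT2, the main glucose transporter of hepatocytes, and Slc2a1 encodes GLUT1. The 3 Slc2a2 OS were all in introns. Number 1893 lay in intron 2 at chr3:28604783-28604937, 8.04 kb downstream of the TSS, with 3 WGATAR, the most in any of the 21. Number 2852 lay in intron 4 at chr3:28613375-28613490, 16.6 kb downstream, with 1. Number 533 lay in intron 8, 24.1 kb downstream, with 2, and was 454 bp from the start of a transcript not annotated as coding. The nearest OS to Slc2a1 was 986 kb away.

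In glycogen metabolism 3 of 6 genes held 1 OS each. Ppp1r3c, a subunit that targets protein phosphatase 1 to glycogen, had OS number 3206 with its midpoint 67 bp upstream of the TSS, and it was the narrowest of the 21 at 80 bp. Ppp1r3b, the corresponding subunit of liver, had OS number 2371 in intron 1, 837 bp downstream of the TSS. Gbe1, the branching enzyme, had OS number 1204 in intron 1, 14.7 kb downstream of the TSS of its longest transcript. The Gbe1 OS had the lowest GC content of the 21, 32.1%.

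Gys2, the glycogen synthase of liver, had a MACS2 peak only, in intron 4 and 13.8 kb downstream. Ugp2, which makes UDP-glucose for glycogen synthesis, had a MACS2 peak only, in intron 8 and 44.5 kb downstream. Pygl, the glycogen phosphorylase of liver, had no peak of any list, and the nearest OS was 433 kb from it. The pyruvate dehydrogenase kinases Pdk2 and Pdk4, which limit the entry of pyruvate into the citric acid cycle, had none either, with the nearest OS at 138 kb and 687 kb.

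In insulin signalling 2 of 6 genes held an OS. Insr, the insulin receptor, had OS number 556 in intron 2, 64.0 kb downstream of the TSS of the longest transcript and 22.9 kb upstream of another coding TSS. A MACS2 peak lay in the same intron, 22.9 kb downstream of the TSS. Pik3r1, the regulatory subunit p85 of phosphoinositide 3-kinase, had OS number 3141 in intron 2 at chr13:102506605-102506924, 31.4 kb downstream of the TSS, with 1 WGATAR. Irs2, an insulin receptor substrate, had a MACS2 peak 1.46 kb upstream of its TSS but no OS of the common list nearer than 34.6 kb from its body. Irs1, with the nearest OS at 44.4 kb, and the kinases Akt1 and Akt2, at 65.3 and 259 kb, had no peak of any list.

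Of the genes of glucagon and fasting, Creb3l3 held 2 OS, and Gcgr and Crtc2 held none. Creb3l3 encodes CREBH, a membrane-bound transcription factor of hepatocytes active in fasting. Its OS number 443 lay in intron 2, 6.17 kb downstream of the TSS and 133 bp from the start of a transcript not annotated as coding. Its OS number 3769 at chr10:80568766-80569085 lay 7.31 kb upstream of Creb3l3 and 165 bp from the TSS of Map2k2. It held 1 WGATAR and had the highest GC content of the 21, 73.8%. Gcgr, the glucagon receptor, and Crtc2, a coactivator of CREB, were 299 and 352 kb from the nearest OS.

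Of the insulin-responsive and secreted group, Trib1 held an OS, and Igfbp1 and Igfbp2 held none. Trib1, a pseudokinase linked to hepatic lipid and glucose handling, had OS number 2780 at chr15:59483859-59484178 in intron 2 of the longest transcript, 3.81 kb downstream of the closest coding TSS, with 2 WGATAR. In the shorter coding transcript Trib1-002 the same position is 3′ UTR. A MACS2 peak of 1442 bp covered the region 207 bp upstream of the TSS. Igfbp1, a binding protein of insulin-like growth factors that insulin lowers, was 930 kb from the nearest OS. Igfbp2 lay just outside the rule at 14957 bp.

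**Figure D2:**
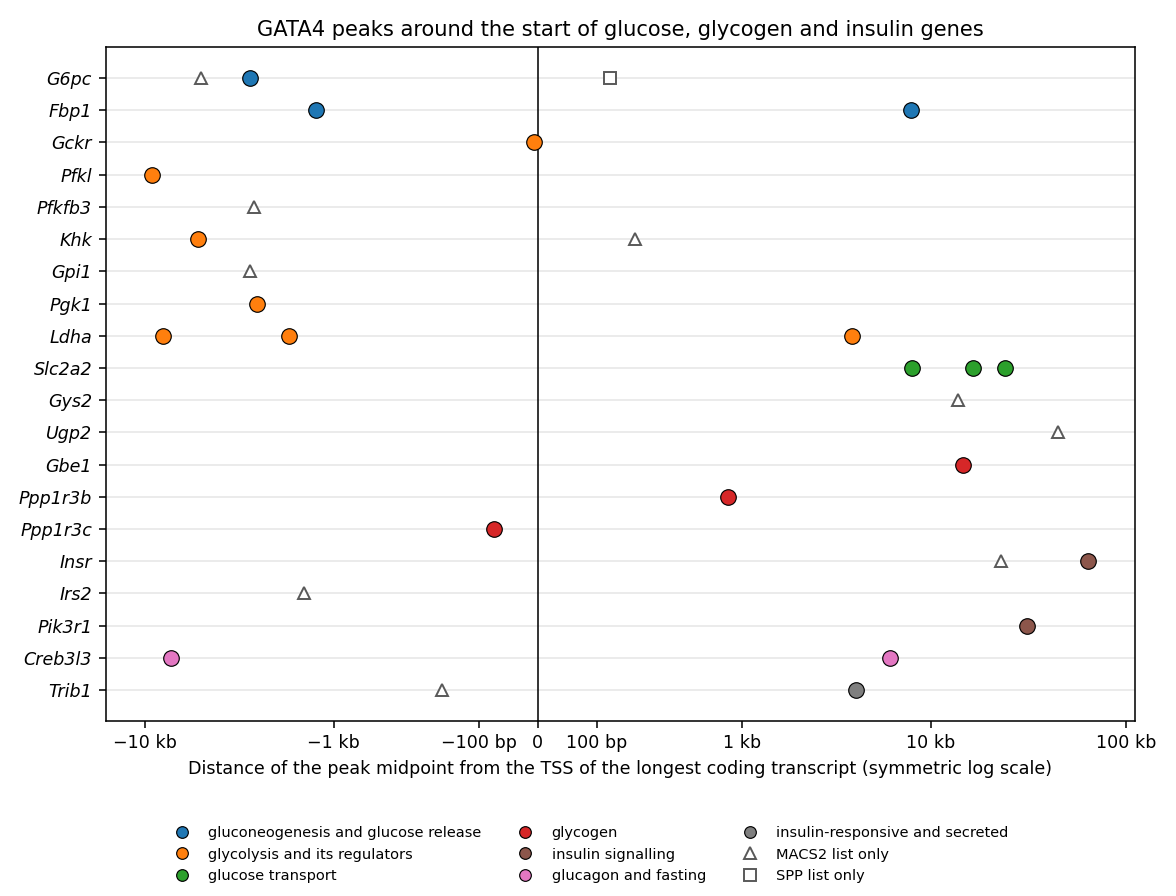
Distance of each peak midpoint from the TSS of the longest coding transcript (symmetric log scale, negative values upstream) for the 20 genes with a peak of any list, with genes in rows and common peaks as filled circles coloured by role. Open triangles are peaks of the MACS2 list only and the open square is the G6pc peak of the SPP list only, so that Pfkfb3, Gpi1, Gys2, Ugp2 and Irs2 show triangles alone.

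Over all lists 20 of 39 genes held a peak, 51.3% beside 18.1% of the other protein-coding genes, and 19 held none. Besides the 21 common OS there were 9 MACS2 peaks and 1 SPP peak outside the common list. Those 9 included the peaks at the starts of Khk and Trib1, where the common list had none within 1 kb.

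Of the 21 OS, placed by their midpoint in the longest coding transcript, 10 lay upstream of the gene, 11 in introns (4 in first introns), and none in an exon or downstream. When every transcript was used, 1 midpoint lay in an exon, that of Trib1. The rule selects for closeness to genes, so positions are set beside the 3161 other OS in the windows of protein-coding genes. For 17 of the 21 the nearest protein-coding TSS was that of the member itself. The exceptions were Fbp1 number 2897, Khk number 1433, Ldha number 477 and Creb3l3 number 3769. The median distance to the nearest protein-coding TSS of any gene was 2847 bp for the 21 OS and 8641 bp for the others. Within 1 kb of such a TSS lay 6 of 21, or 28.6% (13.8 to 50%), beside 20.4%, so the interval held the background. Of these 6, Ldha number 477 and Creb3l3 number 3769 were close to the TSS of another gene.

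Counted by gene, 4 of 39 had an OS within 1 kb of one of their own coding TSS (Gckr, Ldha, Ppp1r3b and Ppp1r3c), which is 10.3% (4.06 to 23.6%), beside 3.10% of the other genes. When transcripts of any type were used, Slc2a2 and Creb3l3 joined them, giving 6 of 39 or 15.4%, beside 3.42%.

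Among members with an OS, the nearest OS was farthest from the gene body for Pfkl at 8852 bp, Khk at 5288 bp and G6pc at 2847 bp. Among members without one, it was closest for Gapdh at 13507 bp, Igfbp2 at 14957 bp and Irs2 at 34616 bp. Of these, G6pc and Irs2 were not close to the 10 kb limit.

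A WGATAR was present in 18 of 21 OS, 85.7% (65.4 to 95%), beside 82.4% of the 3161 others. Among the 819 others with a GC content at or above the members' median of 54.7%, the share was 67.2%. Among the 2342 others below it the share was 87.7%. All these values lay inside the interval of the 21 OS. The 3 member OS without a WGATAR were Pfkl number 4008, Pgk1 number 3755 and Ldha number 4009, all late in the list. Of these, the Pgk1 and Ldha OS held a 5-base part of the motif (WGATA or GATAR) and the Pfkl OS did not. The 21 OS held 26 WGATAR, and 7 OS held 2 or more, 33.3% beside 33.2%. Of the 26, 23 lay within 50 bp of the peak midpoint, 88.5% beside 74.8%. No interval was taken for this share. The 21 OS were 80 to 320 bp wide and the others 80 to 631 bp, which bounds this distance, and the part of width was not tested. By their letters 10 were AGATAA, 8 TGATAA, 5 AGATAG and 3 TGATAG.

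**Figure D3:**
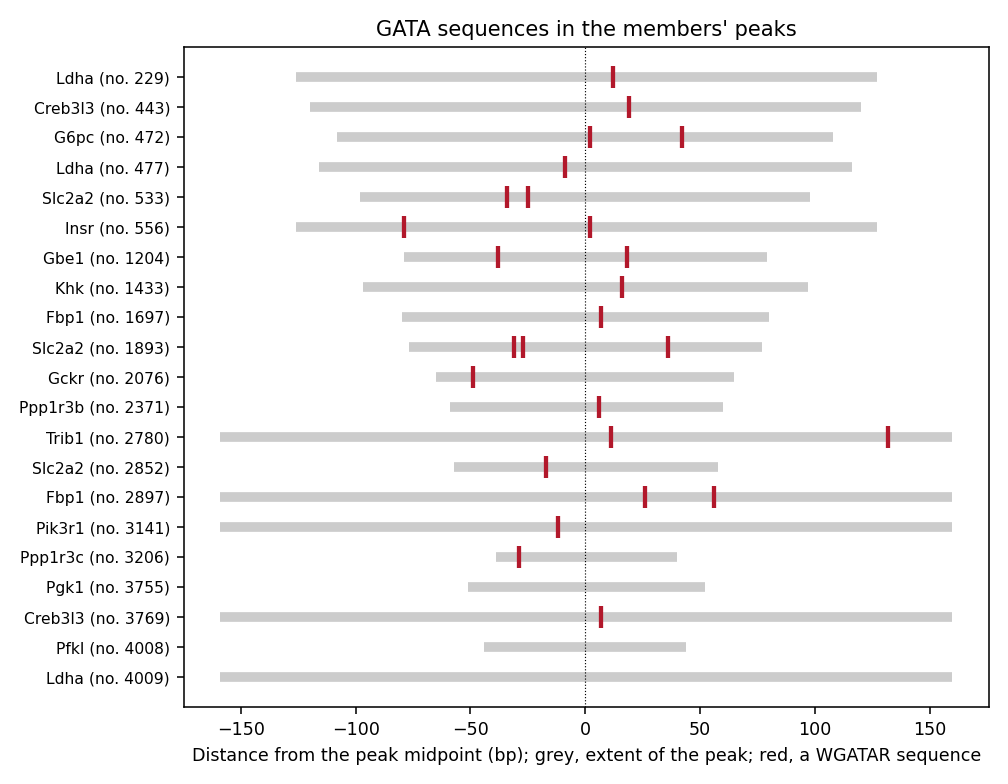
Position of each WGATAR (red) relative to the midpoint of the 21 common peaks (grey bars give their extent, in bp along the plus strand), ordered by list number from top to bottom. Of the 26 marks 23 lie within 50 bp of the midpoint, 88.5% beside 74.8% in the 3161 other OS at protein-coding genes. The bars of Pgk1, Pfkl and Ldha number 4009 carry none.

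A further 7 short motifs were searched on both strands as exact letters. The E-box CACGTG, which is bound by factors such as ChREBP and USF, was in 4 of 21 OS: Pgk1 number 3755, Slc2a2 numbers 533 and 1893, and Ppp1r3c number 3206. This is 19.0% (7.67 to 40.0%), beside 4.33% of the 3161 others. The 21 OS had a median GC content of 54.7% and the others 50%. Among the 819 others with a GC content at or above the members' median the share was 6.72% (5.20 to 8.64%), and among the 2342 below it 3.50%. The intervals of the 21 OS and of the GC-rich others overlapped, and the part of GC content in the difference was not tested. In windows of 500 bp around the midpoint the share was 19.0%, beside 9.14% of all the others and 13.2% of the GC-rich others. Both of these values lay inside the interval of the 21 OS. In the Ppp1r3c and Slc2a2 stretches above, the letters cacgtg can be read in lower case before the GATA sequence.

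Within the peaks themselves, the remaining motifs stood within counting error of the background. The nuclear receptor sequence AGGTCA was in 5 OS, 23.8% beside 23.8% of the others, and among them were G6pc number 472 and Fbp1 number 1697. The FOXA-like words TGTTTAC and TATTTAC were in 2 OS (Ldha number 229 and Gbe1), 9.52% beside 8.60%. The CEBP-like TTGCNNAA was in 1 (Ldha number 4009), 4.76% beside 12.6%. TGACG, part of the cyclic AMP response element, was in 1 (Pik3r1), 4.76% beside 11.8%. The full element TGACGTCA and the HNF4-like CAAAGTCCA were in none, beside 0.791% and 1.20%, and 0 of 21 allows a share of up to 15.5% by the Wilson interval. An exact match is a description and not a binding site, and the absence of these letters says nothing of the factors.

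Most WGATAR lay outside the OS, both at these genes and at the other protein-coding genes. The windows of the 39 genes, body and 10 kb on each side, held 4409 WGATAR, of which 26, or 0.590%, were in a common OS. That total equals the number of common OS by coincidence. The windows of 22311 other protein-coding genes held 3386691 WGATAR, counted gene by gene, and the 3161 other OS held 4036. The low share is therefore not particular to the 39 genes. No share is given for the others, because a WGATAR in overlapping windows was counted for each gene. The median density was 1.76 WGATAR per kb in the 15 windows with an OS and 1.76 in the 24 without, both below the 2.10 of the other protein-coding genes. The highest density of the 39 was at Pck1, with 5.15 per kb and 135 WGATAR, 73 of them in tandem runs of 4 or more GATA units, and no peak of any list. The lowest was at Akt1, with 0.828 per kb.

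Promoter sequences of RefSeq (GRCm38.p6, 250 bases before to 50 after each start) were found for 34 of the 39 genes. A WGATAR was present in at least 1 promoter of 16, 47.1% beside 28.5% of 14827 other genes. The members had more promoters each, 1.59 beside 1.22. Counted per promoter, 18 of 54 held one, 33.3% (22.2 to 46.6%), beside 24.9%, so the interval held the background. Of the 16 genes 9 had no common OS, among them Pck1, Pcx, Pklr, Pdk2, Pdk4, Akt1 and Akt2. Of all 39 genes 24 had none, and the same count was not taken over the other genes. Gckr and Ppp1r3c had both a promoter WGATAR and an OS within 1 kb of the TSS.

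The 21 OS were spread through the common list. Their median number was 2076, with a range of 229 to 4009, beside a median of 2283 for the 3161 others. In 4 equal parts of the list, from first to last, the counts were 6, 5, 6 and 4. In the first part were Ldha numbers 229 and 477, Creb3l3 number 443, G6pc number 472, Slc2a2 number 533 and Insr number 556. The overlapping MACS2 peaks had numbers from 107 to 4945, with a median of 2603 beside 2248 for the 3161 others. By the medians the members stood earlier than the others in the common list and later in the MACS2 list. For the common list, the interval of the members' median (556 to 3141) held the 2283 of the others. No interval was taken for the MACS2 numbers. The Gbe1 OS had number 1204 in the common list of 4409 and 4747 in the MACS2 list of 5867. The Trib1 OS had 2780 and 4945, and the Pfkl OS 4008 and 1968.

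**Figure D4:**
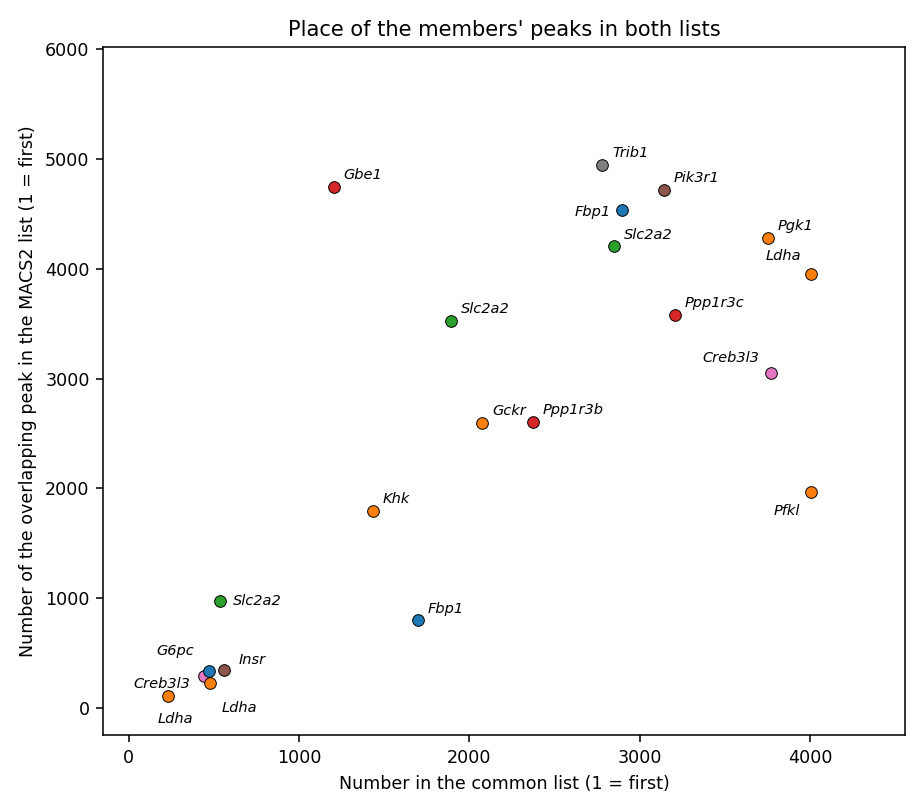
Number of each of the 21 common peaks in the common list (x axis) and of the overlapping peak in the MACS2 list (y axis), coloured by role as in the map of distances. Ldha, Creb3l3, G6pc, Insr and Slc2a2 have points at low numbers in both lists, while Gbe1 has 1204 and 4747, and Pfkl 4008 and 1968.

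Further genes of the same pathways were counted by the same rule. Of 95 listed genes 94 were in the annotation, and 24 of them held a common OS, 25.5%, beside the 13.6% of all protein-coding genes outside the 39. That background ran from 7.32% for genes under 10 kb to 27.9% for those over 100 kb. The share of the 94 was not taken by gene length, and no interval was computed for it. In glycolysis and gluconeogenesis there were 4 of 22: Hk2, Mlxipl, Pfkp and Pkm2. Pkm2, a pyruvate kinase of other tissues, had an OS 112 bp upstream of its TSS, and Mlxipl, which encodes ChREBP, had one 11944 bp downstream. In glycogen metabolism there were 6 of 20, among them Gaa, the lysosomal glucosidase, whose OS was 55 bp upstream of the TSS. In transport and pyruvate handling there were 2 of 11, Slc2a5 and Slc2a9. In insulin signalling there were 7 of 24, among them Pik3r2, Foxo1, Gsk3a and Mtor. In glucagon, fasting and secreted genes there were 5 of 17, among them Ppargc1a, a coactivator of gluconeogenic genes, with OS number 769 in its gene body. Some genes were counted through OS nearer to another gene. The Igfbp6 OS were nearest to the TSS of Soat2, and the OS of Pygm, in the glycogen group, to that of Rasgrp2. The share of these 94 lay near the lower end of the members' interval, 24.9%.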

How the data were processed

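GATA4 ChIP-seq and input DNA of whole mouse liver were analysed as 1 ChIP sample, since the deposited lists pool the replicates, and the input had no file of its own. Per the methods and labels, the authors aligned reads to mm9 with Bowtie 0.12.7, retained reads with a unique position, and called peaks by MACS2 2.0.10 and by a changed version of SPP against merged input. They set thresholds by the irreproducible discovery rate, and intersected both lists with bedtools 2.16.1, keeping SPP coordinates. Sites in repeats without unique reads cannot appear. The deposited files give position, number and a score for each peak, and the score was 1000 throughout, so strength and depth are unknown. The methods sorted SPP peaks by signal and MACS2 peaks by p-value. The lists held 4409 common, 4811 SPP and 5867 MACS2 peaks, all on chromosomes of the mm9 reference.

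Genes were the 22380 protein-coding genes of GENCODE M1 (mm9). Distances run from the midpoint to the closest TSS of a protein-coding transcript unless the longest is named. Motifs were exact matches on both strands. RefSeq promoters of another build were used for sequence only. All 39 genes are named, each common OS with its position, number and motif count. The members and lists were chosen with earlier results of these data known. A total of 46 alternatives were planned, covering reach, overlap, transcript, list, motif and window. Window and motif searches were tested on simulated data. Python 3.11.15, numpy 2.4.6, scipy 1.17.1, pysam 0.24.0 and matplotlib 3.10.9 were used.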

Additional observations from a re-analysis of the deposited data

How the results depend on the processing

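Of 48 alternatives, 29 left a value within 1.5 times the main count or inside its interval and 19 moved it. With the gene body alone (0 kb), 9 genes held 11 common OS, beside 7.65% of other genes, and G6pc, Gckr, Khk, Pfkl, Pgk1 and Ppp1r3c were lost. With the first 2204 peaks of the list, 9 genes held 11 OS, beside 7.19%. At 50 kb, 20 genes held 32 OS, beside 27.6%, and the gains were Gapdh, Igfbp2, Irs1, Irs2 and Pfkfb3. The background moved to 11.3% at 5 kb, 14.5% with the SPP list, 17.3% with the MACS2 list and 11.4% when each OS went only to the nearest TSS within 50 kb, while the members numbered 13, 15, 20 and 17. WGATAR was in 95.2% of the members' OS in windows of 500 bp and in 95.2% for WGATA or GATAR, against 14.3% in windows 5000 bp to the right. For all other common OS it was in 74.3% of the central 100 bp, 89.6% of 500 bp, 92.8% for WGATA or GATAR and 32.0% of the shifted windows, so that the members stood above the others in the peaks (85.7% beside 82.9%) and below them in the shifted windows. The members' median number in the common list was 2076 (interval 556 to 3141), beside 2283 for the other OS at protein-coding genes. The interval held that value. In the MACS2 list the members' median was above that of the same others (2603 beside 2248), with no interval taken. The median in the common list was also 2076 at 5 kb, by any overlap and with the longest transcript. The TSS of any transcript and the OS nearest to their own TSS (82.4% with WGATAR) were alternatives chosen after seeing the data. No paired analysis was possible because there is 1 ChIP sample and no value per replicate, so no replicate could be left out either. The pooled lists limit precision to counting error, and an absent peak says only that none passed the callers' thresholds.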
